A study of Mus musculus with 6 samples.

Results

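The forkhead genes described here were 9 transcription factor genes known from facial mesenchyme, namely Foxc1, Foxc2, Foxd1, Foxd2, Foxf1, Foxf2, Foxp1, Foxp2 and Foxp4. They were taken by name out of 21755 protein-coding genes of the autosomes and chromosome X. The rule that picked them used no measured value, but earlier results of these lists were known when it was set. H3K4me1, the monomethylated form of lysine K4 of histone H3, was profiled by CUT&Tag in 3 wild-type whisker pads of strain B6/J2 at embryonic day 12. In CUT&Tag an antibody guides a transposase to the mark, and the fragments released are sequenced. Each pad was dissociated whole to single cells, so every value is an average over mesenchyme, surface ectoderm and the other cells of the pad. More cells of a type carrying the mark and more mark per cell cannot be told apart in such material. The 3 H3K4me1 samples carry the pad numbers of their titles as replicate numbers, and 3 IgG samples were not analysed here. The labels do not say whether the pads came from separate embryos, so the spread between replicates may be partly technical.

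H3K4me1 is laid down over enhancers, both those in use and those held ready, and over the flanks of active start sites, where the trimethylated form takes its place at the start itself. Forkhead proteins bind DNA through a winged-helix domain. Foxc1 and Foxc2 act in neural crest and mesodermal mesenchyme, Foxf1 and Foxf2 in mesenchyme that receives hedgehog signals, and Foxd1 and Foxd2 in mesenchyme of the head, kidney and other organs. The Foxp proteins are mostly repressors that bind DNA as dimers with each other, and Foxp2 is known for its part in speech and vocal learning. The Foxc, Foxd and Foxf genes are short with 1 or 2 exons, between 2.59 and 5.84 kb long here, whereas Foxp4 spans 57.5 kb, Foxp2 541 kb and Foxp1 597 kb.

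For each gene, peaks were taken that overlapped the gene body or the 5 kb on either side (near peaks). Peaks up to 100 kb away were added when the protein-coding start site nearest to their highest pileup was that of the gene (far peaks). Overlapping peaks of the 3 replicates were merged into regions. The sequences below come from the region of each gene that had a peak in all 3 replicates and the highest mean total signal percentile, which is the rank of a peak by total signal within its own list. Each sequence shows the 150 bases around the highest pileup, read 5′ to 3′ on the strand of the gene from GRCm38 (mm10), and the capitals mark the bases of the highest pileup in the replicate where that stretch was shortest.

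Foxc1 (chr13:31815622-31815771, + strand): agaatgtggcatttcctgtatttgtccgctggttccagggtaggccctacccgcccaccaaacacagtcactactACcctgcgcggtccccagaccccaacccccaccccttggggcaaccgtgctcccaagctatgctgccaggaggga
Foxd1 (chr13:98392289-98392438, + strand): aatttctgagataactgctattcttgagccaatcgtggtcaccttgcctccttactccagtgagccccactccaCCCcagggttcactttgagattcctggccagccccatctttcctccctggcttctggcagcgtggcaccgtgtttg
Foxd2 (chr4:114902683-114902832, - strand): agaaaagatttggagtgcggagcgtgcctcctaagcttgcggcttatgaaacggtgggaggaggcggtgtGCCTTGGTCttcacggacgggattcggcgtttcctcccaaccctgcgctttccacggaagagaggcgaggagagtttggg
Foxf1 (chr8:121058390-121058539, + strand): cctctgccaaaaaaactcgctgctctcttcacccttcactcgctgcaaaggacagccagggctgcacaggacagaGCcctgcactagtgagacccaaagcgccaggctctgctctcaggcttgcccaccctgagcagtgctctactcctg
Foxf2 (chr13:31624349-31624498, + strand): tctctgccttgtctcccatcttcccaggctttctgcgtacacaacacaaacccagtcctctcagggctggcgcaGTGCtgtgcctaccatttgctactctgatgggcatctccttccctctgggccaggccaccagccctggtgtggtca
Foxp1 (chr6:99264302-99264451, - strand): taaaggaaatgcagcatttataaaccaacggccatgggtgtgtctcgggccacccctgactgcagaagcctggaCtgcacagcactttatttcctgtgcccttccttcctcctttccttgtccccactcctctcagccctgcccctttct
Foxp2 (chr6:14898536-14898685, + strand): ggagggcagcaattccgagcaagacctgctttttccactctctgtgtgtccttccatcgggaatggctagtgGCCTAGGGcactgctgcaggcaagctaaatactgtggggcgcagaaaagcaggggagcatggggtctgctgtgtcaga
Foxp4 (chr17:47879760-47879909, - strand): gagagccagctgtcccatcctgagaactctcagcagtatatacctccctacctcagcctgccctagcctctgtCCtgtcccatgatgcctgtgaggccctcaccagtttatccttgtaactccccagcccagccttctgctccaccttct

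The place of the highest pileup recurred most closely for the Foxf1 region, where all 3 replicates had it inside the 150 bases shown. It fell inside the Foxc1 window in 2 replicates and inside the windows of the other 6 genes in 1 replicate. To show start sites with and without a listed peak, promoters of 3 genes are set side by side. They come from the RefSeq table of GRCm38.p6, which held 8 promoters of 6 of the genes. The start site of Foxf2 and an internal start site of Foxp1 lay under a peak in all 3 replicates, and that of Foxd2 in none. The 250 bases before each start are shown on the strand of the gene, and the capitals mark the CG dinucleotides, of which Foxf2 had 21, Foxd2 16 and the internal Foxp1 start 3.

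Foxd2 start (chr4:114908899-114909148, - strand): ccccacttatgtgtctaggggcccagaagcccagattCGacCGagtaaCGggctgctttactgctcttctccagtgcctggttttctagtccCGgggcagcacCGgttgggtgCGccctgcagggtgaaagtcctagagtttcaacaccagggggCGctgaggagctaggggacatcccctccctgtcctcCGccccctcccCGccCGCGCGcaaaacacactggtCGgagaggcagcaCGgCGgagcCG
Foxf2 start (chr13:31625566-31625815, + strand): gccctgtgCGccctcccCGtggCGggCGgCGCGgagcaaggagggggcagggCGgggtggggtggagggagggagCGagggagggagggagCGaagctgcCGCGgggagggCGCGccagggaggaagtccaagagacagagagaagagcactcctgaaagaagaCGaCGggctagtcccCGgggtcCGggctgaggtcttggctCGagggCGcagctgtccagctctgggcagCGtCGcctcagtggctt
Foxp1 internal start (chr6:99266516-99266765, - strand): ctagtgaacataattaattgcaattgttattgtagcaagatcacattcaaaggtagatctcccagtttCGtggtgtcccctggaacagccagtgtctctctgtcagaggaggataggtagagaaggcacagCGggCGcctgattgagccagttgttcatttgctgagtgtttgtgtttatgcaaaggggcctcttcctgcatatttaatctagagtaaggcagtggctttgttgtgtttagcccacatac

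CG-rich sequence thus stood before a start with a peak and before one without. Over the 300 bases from 250 before to 50 after the start, GC content was 71.3% for Foxf2, 67.7% for Foxd2 and 48.7% for the internal Foxp1 start, and the median of all 32851 promoters was 52.7%.

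The lists held 16788, 12969 and 13998 peaks in replicates 1, 2 and 3, and their length follows from keeping the top 1% of signal blocks. The total signal in peaks was 822360552, 985881531 and 744342185 pileup units, and read numbers are not in the lists. The source name of replicates 2 and 3 is adult kidney, against whisker pad in their titles. Of 14 facial mesenchyme markers, 14, 13 and 13 had a near peak in replicates 1, 2 and 3. Of 14 adult kidney markers, 4, 4 and 2 did. Of all protein-coding genes, 24.9, 22.6 and 19.6% had a near peak in the same replicates. Slc12a1 and Cubn, genes of the kidney tubule, had one in all 3 replicates, and 10 of the 14, Umod, Nphs1, Slc34a1 and Hnf4a among them, had none in any. Of 10 surface ectoderm markers, 7, 7 and 2 had a near peak, and of 6 erythroid markers 0 did in any replicate. Of 4 muscle markers 3 did in each replicate, of 6 endothelium markers 3, 2 and 2, and of 6 markers of neurons and glia 1, 2 and 0. Replicate 3 stood apart by GC content. Over 8916 regions with a peak in all 3 replicates, the log2 ratio of signal share between replicates 3 and 2 had a median of 0.98 in the tenth of regions with the lowest GC content and of -0.84 in the tenth with the highest. Results that rest on this replicate are given with and without it.

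Near peaks were found for 8, 7 and 7 of the 9 genes in replicates 1, 2 and 3. Foxc1, Foxd2, Foxf2, Foxp1, Foxp2 and Foxp4 had one in all 3 replicates, Foxd1 in replicates 1 and 3, Foxf1 in replicates 1 and 2, and Foxc2 in none. The same rule held for 15.5% of all protein-coding genes in all 3 replicates, and for 24.9, 22.6 and 19.6% in the single replicates. Gene length moved with this share, which was 7.1% in all 3 replicates for genes shorter than 10 kb and 34.4% for genes of 50 kb and longer. Among the 6 short genes, 3 had a near peak in all 3 replicates, and all 3 Foxp genes did. Without replicate 3, 7 of the 9 genes had a near peak in both remaining replicates, against 21% of all protein-coding genes. With the start site and 1 kb on each side in place of the gene body, Foxf2 and Foxp2 had a peak in all 3 replicates, 2 of 9 genes against 4.04% of all. No test was made of these counts, for the reason given at the start.

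The 9 genes together received 51, 32 and 42 peaks, on average 41.7 ± 9.50 (SD, n = 3). Of these, 38, 25 and 34 were near peaks and 13, 7 and 8 far peaks. Replicate 2 had the fewest and also the shortest list. The peaks made up 0.304, 0.247 and 0.300% of the lists and held 0.340, 0.315 and 0.334% of the list signal. Their median length was 3124, 4430 and 3422 bp, against 2981, 3682 and 3352 bp for all peaks. The median total signal percentile was 51.0, 73.0 and 52.1, and 7, 4 and 6 peaks were at or above the 90th percentile. The strength of a typical peak of these genes was thus near the middle of the list in replicates 1 and 3 and above it in replicate 2.

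**Figure D1:**
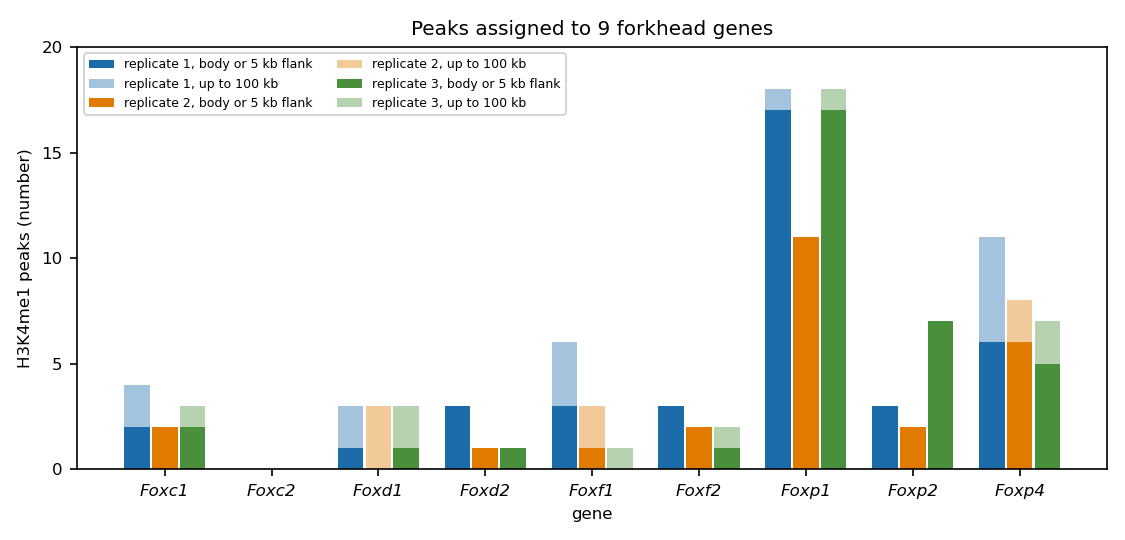
Number of H3K4me1 peaks assigned to each forkhead gene (horizontal axis) in each replicate. Dark bars count peaks over the gene body or the 5 kb on either side, and pale bars those up to 100 kb away with their nearest coding start site at that gene. Foxp1 had 18, 11 and 18 peaks in replicates 1, 2 and 3, and Foxc2 had 0.

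The peaks were unevenly spread over the genes. Foxp1 had 18, 11 and 18 peaks, Foxp4 11, 8 and 7, and Foxp2 3, 2 and 7 in replicates 1, 2 and 3. Together the Foxp genes held 70.4, 68.2 and 78.1% of the signal of the 9 genes. Among the short genes, Foxf1 had 6, 3 and 1 peaks, Foxc1 4, 2 and 3, Foxd1 3, 3 and 3, Foxf2 3, 2 and 2, and Foxd2 3, 1 and 1. Foxf1 was the gene whose number moved most against its own mean, from 6 peaks in replicate 1 to 1 in replicate 3. Ranked by mean share of list signal among the 21755 genes, Foxp1 was at place 93, Foxp4 at 260, Foxc1 at 538, Foxp2 at 1454, Foxd1 at 1816, Foxf1 at 1925, Foxf2 at 2340 and Foxd2 at 3472. This rank adds up peaks over the whole gene and its surroundings, so it favours long genes. It also includes replicate 3. Foxp2 held 0.0130, 0.00920 and 0.0354% of the list signal in replicates 1, 2 and 3, and Foxf1 0.0189, 0.0182 and 0.00265%. Foxp2 thus stood above Foxf1 in replicate 3 alone. Scaled to the window, Foxd2, Foxf2 and Foxc1 had 13.2, 12.8 and 12.6 near peaks per 100 kb of gene body and flanks. Foxf1 had 9.69, Foxp4 8.39, Foxd1 4.43, Foxp1 2.47 and Foxp2 0.726, so Foxp4 stood above the short gene Foxd1. A peak that touches the window counts whole, so this scale favours short genes. The value of Foxd2 rested on replicate 1 and was 7.94 without it, below the 9.62 of Foxf2 and the 12.6 of Foxc1. That of Foxf1 was 3.63 without replicate 1. With replicate 3 left out, Foxf2 had 16.04, Foxd2 15.88, Foxf1 14.54 and Foxc1 12.62. Foxf2 was then first, and Foxf1 stood above Foxc1.

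The strongest peak of each gene gave another order. Its percentile was 98.9 ± 0.632 for Foxp1, 98.7 ± 0.283 for Foxc1, 95.5 ± 3.17 for Foxp4, 78.6 ± 0.856 for Foxd1, 70.6 ± 14.0 for Foxp2, 52.4 ± 31.1 for Foxf2, 49.9 ± 41.5 for Foxf1 and 45.9 ± 12.2 for Foxd2 (SD, n = 3 each). The values of Foxp1 and Foxc1 overlapped, with a lowest of 98.3 and 98.4. Foxp4, with a highest value of 97.6, did not overlap Foxc1, and Foxd1, with a highest of 79.5, did not overlap Foxp4. Foxp2 spanned 57.3 to 85.2 and enclosed the 3 values of Foxd1. Foxp2, Foxf2, Foxf1 and Foxd2 overlapped each with the next in the order. Without replicate 3, the means were 98.7 for Foxc1, 98.6 for Foxp1, 97.3 for Foxp4, 79.0 for Foxd1, 73.8 for Foxf1, 69.5 for Foxf2, 63.3 for Foxp2 and 39.3 for Foxd2. Foxc1 then stood above Foxp1, and Foxf1 and Foxf2 above Foxp2. Foxd2 was last in this order and without replicate 3, but not without replicate 1, where it had 51.4 against 48.8 for Foxf2 and 38.6 for Foxf1, nor without replicate 2, where it had 47.0 against 39.0 and 37.2. With 3 values against 3, an exact permutation test cannot go below p = 0.1, so the order is a description.

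**Figure D2:**
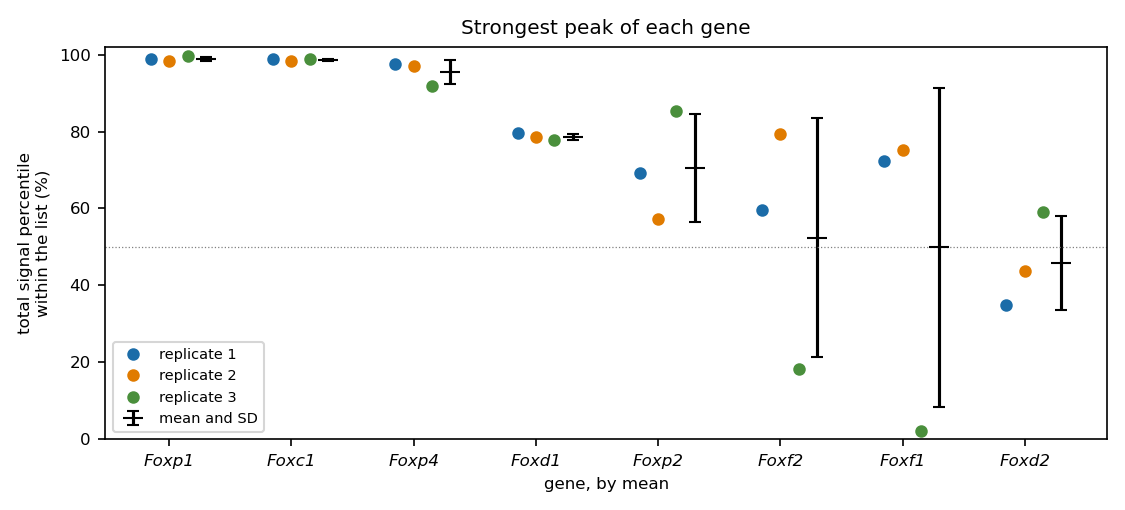
Total signal percentile, within the list of each replicate, of the strongest peak assigned to each gene (vertical axis), with genes ordered by their mean. Points are replicates, black marks the mean and SD of 3 replicates, and the dotted line the middle of the list. Foxp1, Foxc1 and Foxp4 stayed above 91 in every replicate, whereas Foxf1 fell to 2.01 in replicate 3.

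Foxc1, a gene needed for the eye's anterior segment, skull and other neural crest derivatives, had the strongest region of the short genes. It spanned chr13:31812562-31826422, 13.9 kb from 5.93 to 19.8 kb past the start site, and reached into the end of the neighbouring gene Gmds. The peak was 13.3, 13.2 and 12.9 kb long at percentiles 98.9, 98.4 and 98.8. In replicates 1 and 2 it began 86 bp after the end of Foxc1, with the highest pileup 9.06 kb past the start in both, and in replicate 3 the highest pileup lay at 14.6 kb. So the same block was marked in the 3 pads, at nearly the same rank, while its summit differed in replicate 3. A further region, from -6.73 to 1.06 kb around the start site, had percentiles of 83.6, 76.3 and 50.6 and covered the start in replicates 1 and 2. In replicate 3 its peak ended 2.21 kb before the start. Replicates 1 and 3 also had a weak peak 98.2 kb past the gene inside Gmds, just within the 100 kb limit, at percentiles 40.7 and 5.14.

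Foxf2, which acts in palate and tongue mesenchyme, lies 175 kb from Foxc1 on the same chromosome. The 5′ start site lay under a peak for 3, 2 and 1 of the 9 genes in replicates 1, 2 and 3, and for 5.31, 6.5 and 2.42% of all protein-coding genes. For Foxf2 it did so in all 3 replicates, which held for 1.8% of all protein-coding genes and for 11.6% of those with a near peak in all 3. The region spanned -2.02 to 5.48 kb around the start, at percentiles 57.0, 79.3 and 18.3. In replicate 2 a single peak of 7.42 kb covered the gene, in replicate 1 peaks of 3.02 and 1.99 kb lay at its ends, and in replicate 3 the peak of 2.26 kb ended soon after the start. A second region from -7.90 to -2.79 kb had percentiles of 59.7, 55.2 and 11.1. Both regions were thus weakest in replicate 3, where their signal share fell below that of replicate 2 by 1.53 and 0.73 on the log2 scale, against medians of -0.84 and -0.53 for all regions of like GC content. In replicate 3 the second region lay 5.12 kb from the gene and counted as a far peak. Between 5 kb after Foxf2 and 5 kb before Foxc1, a stretch of 165 kb, the lists held 2, 1 and 1 peaks, the strongest of which was the upstream Foxc1 region at its edge.

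Foxf1, a hedgehog-responsive gene of splanchnic and facial mesenchyme, showed the largest spread between replicates. Its region in all 3 lay from -30.1 to -24.4 kb of the start, inside the long noncoding RNA gene Fendrr, which is transcribed away from Foxf1. The percentiles were 66.4, 75.3 and 2.01, and the highest pileup lay at -25.9 kb in every replicate, within the 150 bases printed above. The position was thus shared although the rank was not. A peak from -14.4 to -8.20 kb in replicates 1 and 2 had percentiles of 72.4 and 64.5, and a peak from -4.51 to -0.289 kb had 28.3 and 41.1. Replicate 3 held neither. Its signal share in the shared region fell below that of replicate 2 by 1.56 on the log2 scale, against a median of -0.53 for regions of like GC content, and the part of GC content in this was not tested. Peaks over the gene itself, from 0.976 to 3.42 kb, and just after it were found in replicate 1 alone, at percentiles 0.596 and 27.5.

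Foxc2, which acts in vascular, lymphatic and skeletal mesenchyme, was the gene with no assigned peak in any replicate. Of all protein-coding genes, 28.8% had a near peak in at least 1 replicate, and of those shorter than 10 kb 18%. The closest peaks lay 5.30, 5.29 and 44.1 kb after the gene and 24.5, 32.1 and 57.2 kb before it. Those at 5.30 and 5.29 kb spanned the start site of Foxl1, another forkhead gene 9.05 kb away, at percentiles 70.1 and 66.7, and fell just outside the 5 kb flank. The nearest start site of every peak in the stretch after Foxc2 up to 200 kb past Foxl1 was that of Foxl1, so the absence of far peaks follows partly from the rule that gives a peak to its nearest start. In the 200 kb after Foxl1 the lists held 17, 11 and 7 peaks that covered 30.4, 29.0 and 14.0% of the stretch. The strongest of them, in replicate 2, spanned chr8:121281696-121307839, was 26.1 kb long and stood at percentile 99.2. In the same place replicate 1 had its strongest at percentile 96.6 and replicate 3 at 85.2. A block of strong signal, from about 160 kb after Foxc2 onwards, was thus present in all 3 replicates, and the lists do not show which gene it belongs to.

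Foxd1, which marks stromal precursors of the kidney and mesenchyme of the head, had its strongest assigned region away from the gene. That region was given to Foxd1 by its nearest start site, and the lists do not show which gene it belongs to. It lay from 35.2 to 40.8 kb past the start, chr13:98389411-98395032. Its percentiles were 79.5, 78.5 and 77.8, the narrowest spread after Foxc1 and Foxp1. Its highest pileup lay at 39.4, 38.1 and 37.6 kb. The other 3 regions were each found in a pair of replicates. One over the 3′ part of the gene, from 3.0 to 5.0 kb, had percentiles of 16.3 and 7.94 in replicates 1 and 3. One at 11.3 to 13.5 kb had 43.6 and 31.3 in replicates 1 and 2, and one at 18.5 to 22.0 kb had 17.1 and 42.1 in replicates 2 and 3. The start site lay 3.13, 11.3 and 3.00 kb from the closest peak.

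Foxd2, a relative of Foxd1 expressed in craniofacial and limb mesenchyme, had the lowest mean percentile of the genes with peaks, a place that it kept only without replicate 3 when replicates were left out in turn. A region from 1.45 to 8.19 kb past the start reached over the end of the gene and into the antisense gene 9130410C08Rik. Its strongest peak had percentiles of 31.6, 43.8 and 59.1. In replicates 1 and 2 that peak lay 2692 and 1861 bp past the gene, and in replicate 3 it covered the gene end. Replicate 1 had a second peak in this region, over the gene end, at percentile 14.1. By total signal replicate 3 was the highest here, with a log2 ratio of signal share to replicate 2 of 0.49 against a median of -0.09 at like GC content. Its peak was 6.74 kb long and stood only at percentile 2.39 by maximum signal and 1.31 by signal per length. The strongest peaks of replicates 1 and 2 in this region stood at 22.1 and 34.6 by maximum signal, and at 34.2 and 30.7 by signal per length. Replicate 1 alone had a peak before the gene, from -5.36 to -2.74 kb, at percentile 34.9. Foxe3, the neighbour 16.3 kb away, had no near peak.

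**Figure D3:**
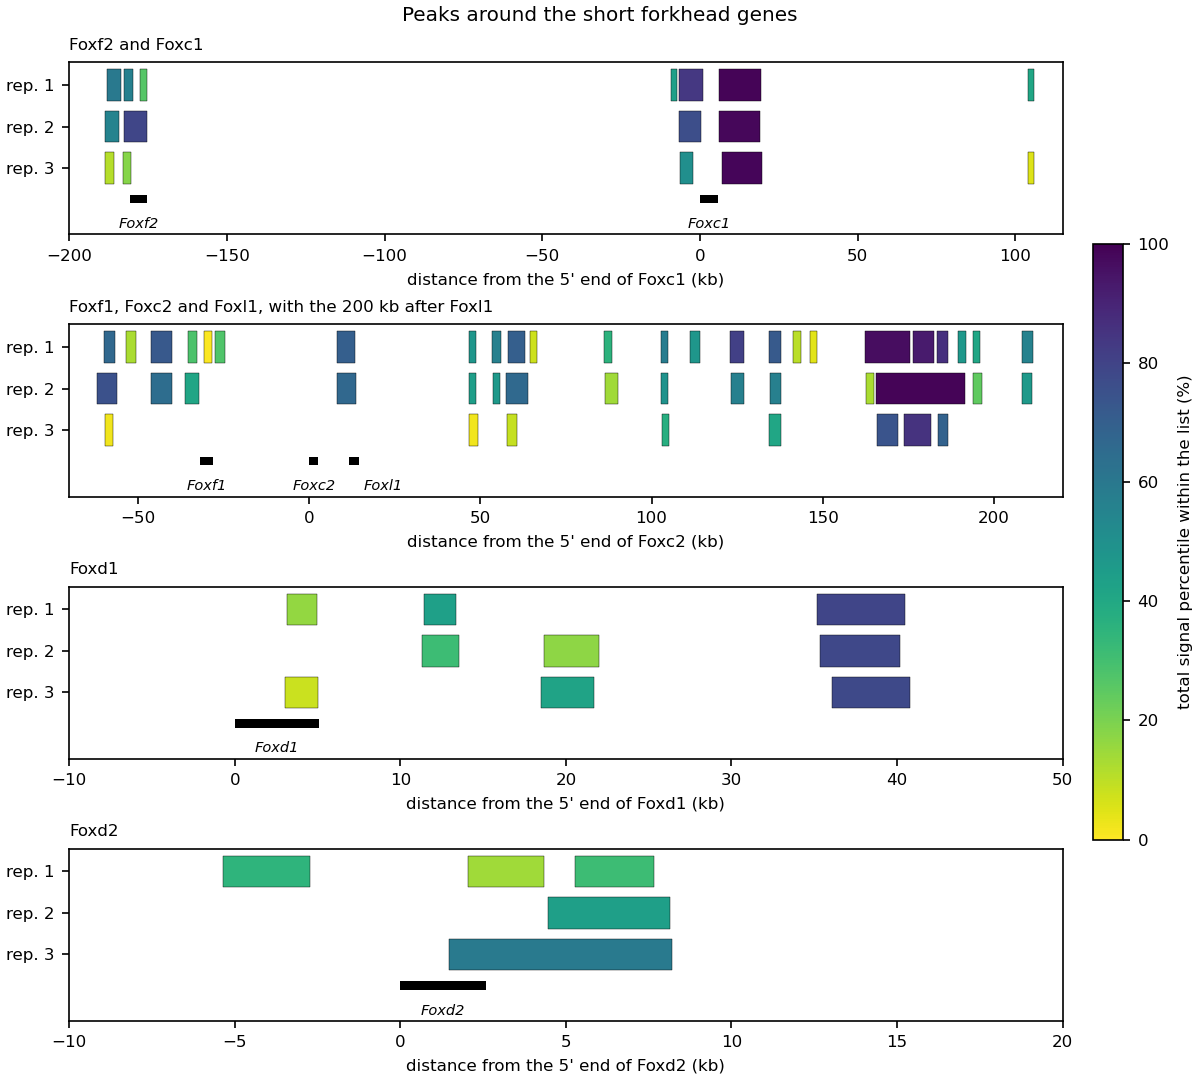
Peaks of each replicate around the short forkhead genes, by distance from the 5′ end of the gene named on the axis, in kb. Boxes are peaks coloured by total signal percentile within their list, and black bars are genes. The dark block after Foxc1, with a mean percentile of 98.7, recurs in all 3 replicates, no box overlaps Foxc2, and the block far after Foxl1 reaches percentile 99.2 in replicate 2.

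Foxp1, which acts in neurons, heart, lymphocytes and hair follicle stem cells, had 23 regions, and 9 of these were found in every replicate. All 9 lay within the gene. The strongest spanned chr6:99260469-99276302, 15.8 kb long and 246 to 262 kb into the gene, with percentiles of 98.9, 98.3 and 99.5. Others in all 3 replicates lay at 315 to 324 kb, with percentiles of 95.3, 84.1 and 97.2, at 33.9 to 41.2 kb, with 91.6, 87.6 and 91.0, and at 454 to 460 kb, with 90.7, 80.8 and 92.4. Replicate 2 had the lowest percentile in each of these 4 regions. In the one at 315 to 324 kb it had 2 separate peaks, and its percentile is that of the stronger. No peak lay over the 5′ end of the gene, with the closest peak 25.1, 35.7 and 9.0 kb away. Of the remaining regions, 4 were in replicates 1 and 3, 5 in replicate 1 alone, 4 in replicate 3 alone and 1 in replicate 2 alone. The genes most like Foxp1 in signal share, over 3 replicates and 4143 genes with a share in each, were Zfp608, Rad51b and Rbfox2, at distances of 0.11, 0.19 and 0.19 on the log2 scale. Foxp1 held 0.136, 0.110 and 0.175% of the list signal and Zfp608 0.128, 0.104 and 0.178%. For Foxd1, the gene of median share, the most alike were Zfp648, Tubb2b and Apod, at 0.14, 0.16 and 0.17.

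Foxp genes have alternative start sites, and those under a peak in all 3 replicates were internal. Of the 14 coding start sites of Foxp1, 2 lay under a peak in all 3 replicates and the other 12 in none. One was the internal start at chr6:99266515 printed above, 256 kb into the gene and within the strongest region. The other lay at chr6:99096205, 427 kb into the gene, in a region with percentiles of 72.6, 55.7 and 63.1. The starts around 494 kb, where GC content reached 76.7%, had no peak over them. Over all coding start sites, 2.98% lay under a peak in all 3 replicates, whereas 7 of the 32 of these genes did. The 7 were 1 of Foxf2, 2 of Foxp1 and 4 of Foxp2, and those of Foxp2 shared 1 region.

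Foxp2 had 7 regions over its 541 kb, and 2 of them were in all 3 replicates. The first, from -4.47 to 0.227 kb around the 5′ end, had percentiles of 68.7, 57.3 and 71.7. It covered the 5′ start in replicate 1, and ended 0.347 and 0.112 kb before it in replicates 2 and 3. The second lay from 282 to 286 kb into the gene over 4 internal coding start sites, with percentiles of 69.2, 41.3 and 85.2. Its highest pileup lay at 282.90, 282.93 and 282.98 kb in the 3 replicates. Replicate 3 alone had 4 further regions, between 354 and 509 kb, with a GC content of 35.2 to 40.3% and percentiles of 12.3 to 52.4. Without replicate 3, the mean number of Foxp2 peaks was 2.5 instead of 4.0.

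Foxp4, which acts in lung, gut and neural development, carried peaks along much of its body. Of its 9 regions, 7 had a peak in all 3 replicates, 5 within the gene and 2 before it. The strongest lay 40.9 to 48.6 kb into the gene with percentiles of 97.6, 96.9 and 91.8, followed by one at 12.3 to 21.0 kb with 95.5, 92.5 and 87.4. In another, at 32.7 to 39.2 kb, the highest pileup lay over an exon at 36.7 kb in every replicate, with percentiles of 87.3, 83.4 and 66.3. Peaks covered 49.3, 48.2 and 35.8% of the gene body and its flanks, against a mean of 4.37, 4.13 and 3.82% for genes of 50 kb and longer. Its 4 coding start sites, all within 0.245 kb, lay under no peak, and the nearest peak began 1.13, 0.956 and 1.72 kb away. The 2 regions before the gene, at -20.5 to -15.5 kb and -58.6 to -48.3 kb, had percentiles of 59.3, 61.7 and 49.5, and of 60.8, 86.8 and 38.4. In the farther region replicate 1 had 3 separate peaks, of which 60.8 is the strongest, and replicate 2 had a single peak of 10.3 kb.

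**Figure D4:**
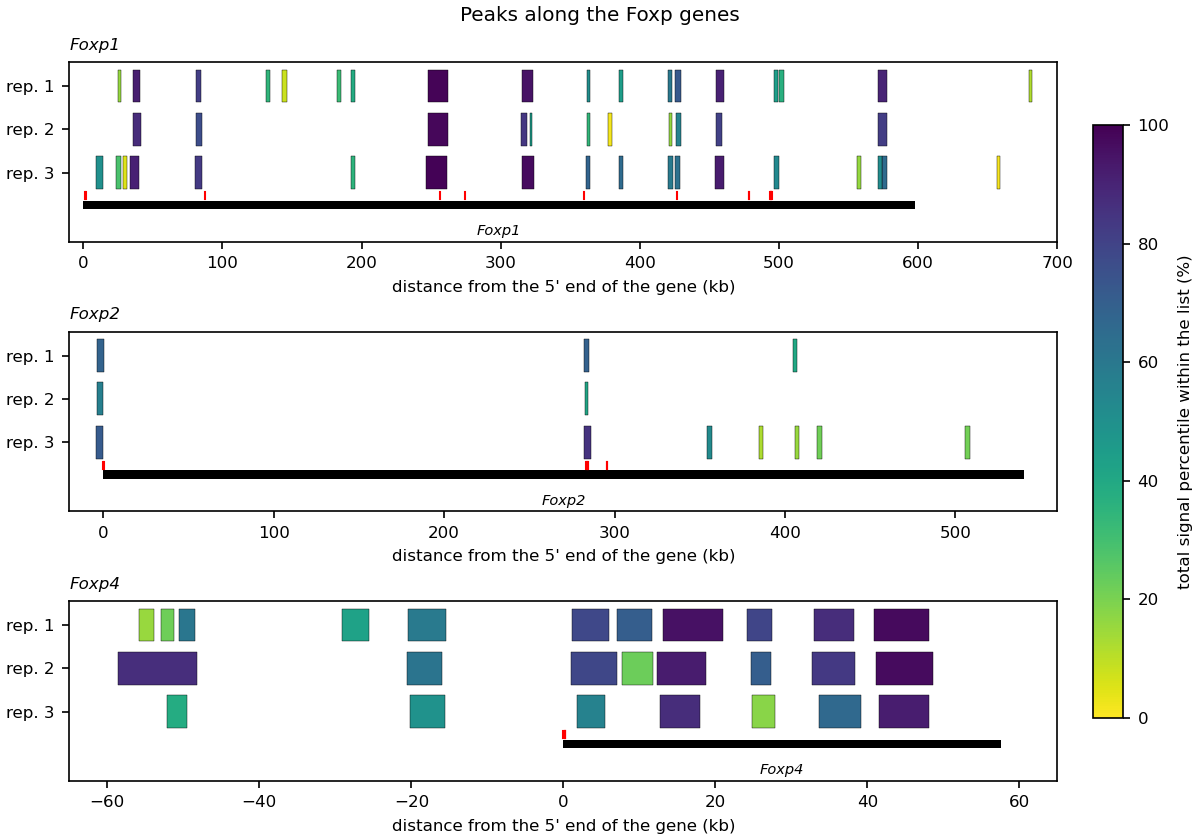
Peaks of each replicate along Foxp1, Foxp2 and Foxp4, by distance from the 5′ end of the gene in kb. Boxes are peaks coloured by total signal percentile within their list, black bars are genes and red ticks are coding start sites. The darkest block of Foxp1 lies 246 to 262 kb into the gene over a red tick, and Foxp4 carries boxes over much of its length.

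Over the 9 genes, merging gave 57 regions. A peak in every replicate was found in 25 of them (43.9%), in a pair of replicates in 12 and in 1 replicate in 20. Of all 19251 merged regions, 46.3% had a peak in all 3, a share close to that of these genes. Among the regions in 1 replicate, 11 were of replicate 1, 1 of replicate 2 and 8 of replicate 3. The highest pileup of the 125 peaks lay in an intron of a protein-coding gene in 70, in an exon in 8 and outside protein-coding genes in 47. Some of the last lay inside noncoding genes such as Fendrr. The split of all list peaks is not given.

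In replicate 3, the Foxp1 and Foxp4 regions moved in opposite directions, as did the medians of all regions of like GC content. The 9 shared regions of Foxp1 had a median GC content of 45.3%, and the log2 ratio of signal share between replicates 3 and 2 was above 0 in all of them, with a median of 0.38, against 0.34 for all regions of like GC content. The 7 shared regions of Foxp4 had a median GC content of 52.6%, and the ratio was below 0 in all of them, with a median of -0.75, against -0.53 at like GC content. The 7 shared regions of the Foxc, Foxd and Foxf genes had 51.3% and a median of -0.73, against -0.53, with 6 below 0. Over the 25 regions the median was -0.02, and over all 8916 regions 0.11. Replicates 1 and 2 differed less, with median log2 ratios of replicate 1 to replicate 2 of 0.25, -0.05 and -0.20 in the same 3 groups. For all regions this median ran from 0.04 in the tenth with the lowest GC content to -0.16 in the highest. The values 0.25 and -0.20 lay outside that range and -0.05 within it. The rank of Foxp1 above Foxp4 held in each replicate, at shares of 0.136 against 0.0909%, 0.110 against 0.0959% and 0.175 against 0.0506%. The part of GC content in the distance between them was not tested.

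**Figure D5:**
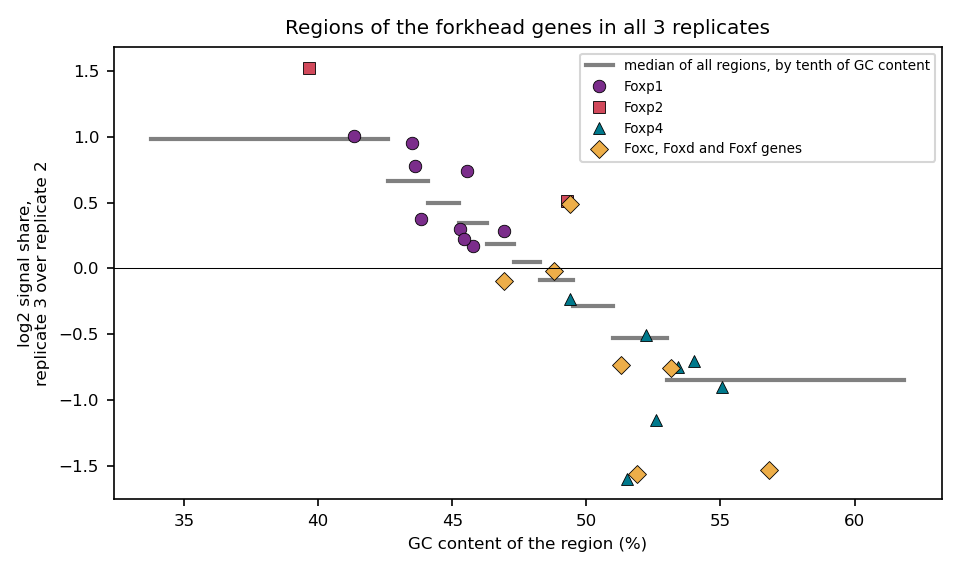
Log2 ratio of signal share between replicates 3 and 2 (vertical axis) against GC content (horizontal axis) for the 25 regions of the forkhead genes with a peak in all 3 replicates. Grey bars are the medians of all 8916 such regions in 10 groups of rising GC content, from 0.98 to -0.84. The Foxp1 regions lie above 0 and the Foxp4 regions below it.

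The 35 other forkhead genes were counted by the same rule. Near peaks were found for 13, 14 and 6 of them in replicates 1, 2 and 3, and for 6 (17.1%) in all 3, namely Foxk1, Foxl2, Foxn3, Foxo1, Foxo3 and Foxo6, against 15.5% of all genes. Foxn3, a long gene like Foxp1, had 17, 15 and 14 assigned peaks and the place 72 by signal share. No near peak was found for 21 of them in any replicate. Of the forkhead genes within 500 kb of the 9, Foxl1 had a near peak in replicates 1 and 2, Foxq1, 64.8 kb from Foxf2, in replicate 2 alone, and Foxe3 in none.

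Short motifs were sought on both strands in the 300 bases around the highest pileup of the 25 shared regions. The forkhead core TGTTTAC was found in 1 of them, in Foxp1 at 361 to 364 kb into the gene, and in 4.21% of all 8916 regions. The TCF/LEF letters CTTTGAT were in 0 of the 25 and in 3.91% of all regions, and the GLI letters TGGGTGGTC in 0 and in 0.482%. In the 8 RefSeq promoters none of these letters occurred, and among all promoters they were in 3.65, 3.73 and 0.253%. The windows are few and the letters exact, so these counts describe the reference sequence alone.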

How the data were processed

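H3K4me1 CUT&Tag was analysed from 3 deposited peak lists of E12 whisker pads. Per the labels' processing notes, the authors used Bowtie2 2.3, SAMtools 0.1.19, bedtools and SEACR 1.3 with mm10. Peaks were called per replicate in stringent mode without IgG, keeping the top 1% of blocks. The deposited signal columns hold the total signal (summed fragment pileup) and the maximum signal, as whole numbers not scaled to depth, so signals were compared as percentiles and shares within a list. Depth is unknown from the lists, and the number of peaks kept is no measure of enrichment.

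Gene models were GENCODE vM21 on GRCm38, with 54050 coding start sites. Regions were merged at an overlap of at least 1 bp. Analysis used Python 3.11.15, pandas 2.3.3, numpy 2.4.6 and pysam 0.24.0, and was tested on simulated data. Readthrough models spanning Foxf1 to Foxc2 and Foxp1 to Eif4e3 were left out of gene labels. The genes named were the 9 genes, the forkhead genes with a near peak in all 3 replicates or within 500 kb, neighbours, markers and the 3 genes nearest in log2 signal share by Euclidean distance. The genes and lists were chosen with earlier results of these data known. Alternatives covered stronger peaks, joined peaks, other flanks and distances, other signal measures, the basic annotation and leaving out each replicate.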

Additional observations from a re-analysis of the deposited data

How the results depend on the processing

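Of 86 values over the genes under other settings, 78 stayed within 1.5 times the count or within the SD between replicates. For results judged by that SD, leaving out a single replicate cannot move the mean past it. Those values were bound to stay and are no sign of stability. With the stronger 50% of each list, the mean number of peaks was 23.7 instead of 41.7 per replicate and 2.63 instead of 4.63 per gene, regions in all 3 replicates were 15 instead of 25, the median length was 4996 instead of 3658 bp, and the signal share 0.354 instead of 0.330%. With the strongest 10000 peaks the median length was 4447 bp, and with a 200 kb limit the share was 0.362%. Cutting each list to its upper 50% or to 10000 peaks left 4 genes instead of 6 with a near peak in all 3 replicates. Both values lay just at the limit of 1.5 times the count and were therefore among the 78. With the start site and 1 kb on each side in place of the gene body, 2 genes instead of 6 had a peak in all 3 replicates, against 4.04% of all genes. Leaving out each replicate in turn gave 37.0 to 46.5 peaks. A peak was then required in the remaining replicates only, and 6 to 7 genes had a near one and 26 to 32 regions were shared. Under this looser rule the number of genes could not fall below 6. Start sites of the basic annotation, a setting chosen after seeing the data, moved no result past these limits. Among single genes, leaving out replicate 1 moved Foxd2 from 1.67 to 1.0 and Foxf1 from 3.33 to 2.0 peaks. With near peaks alone, Foxd1 had 0.667 instead of 3.0 peaks, Foxf1 1.33 instead of 3.33 and Foxp4 5.67 instead of 8.67, so these counts rest partly on far peaks. Of 85 values for single genes, 20 moved. The percentiles of strongest peaks with a replicate left out are among the 85 and were likewise bound to stay. For other signal measures the highest percentile among the peaks of a gene was taken anew, so it need not come from the same peak. That of Foxd2 was 27.5 by maximum signal and 22.1 by signal per length, instead of 45.9 by total signal. By maximum signal Foxp4 stood above Foxc1, at 97.2 against 96.5, and by signal per length Foxp2 stood above Foxd1, at 83.6 against 74.3, and Foxc1 and Foxp1 were both at 95.9. No paired analysis was possible because only H3K4me1 lists were analysed and they form 1 group. No background from IgG is given beside any value, and absence of the mark cannot be told apart from marking below the top 1%.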
